A study of Mus musculus with 15 samples.

Results

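Reprogrammed cells of mice fed DDC were set against the hepatocytes of untreated mice, the uninjured state from which the series title derives them (reprogrammed hepatocytes). RNA of sorted mouse liver cells was sequenced in 15 libraries of 5 groups, and the comparison uses 6 of them, 3 per group. Its members are 13905 genes of the 24493 in the deposited table: those with a TPM (length-corrected relative abundance of a transcript) of 1 or more in 3 libraries or more. According to the labels, all mice, untreated ones too, had been given AAV-TBG-Cre at the age of 4 weeks to label cells. This virus expresses Cre recombinase from TBG, a promoter active in hepatocytes. DDC mice were changed to DDC chow at the age of 5 weeks and stayed on it for 4 weeks, and cells were sorted with no culture step. The other groups, used here for reference, were DDC hepatocytes, DDC biliary cells and untreated biliary cells. Reporter allele, sorting markers and sex of the mice are not stated in the labels. No age at sorting was recorded here for untreated mice, so a difference in age cannot be told apart from the effect of DDC. The labels also do not say whether the libraries of a group came from different animals, so the p-values reflect the spread among these libraries, which may be technical.

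DDC is a porphyrinogenic compound whose products block ferrochelatase. Pigment then plugs small bile ducts and a ductular reaction follows, in which cells with duct features accumulate around portal tracts. Hepatocytes and cholangiocytes, the cells that line bile ducts, share a fetal precursor, and under chronic duct injury some mature hepatocytes switch on duct genes, a process in which YAP, Notch and TGF-beta signalling are known to take part. Hepatocytes secrete plasma proteins, run the urea cycle and make bile acids, whereas cholangiocytes form a sealed, ciliated, keratin-rich epithelium that modifies bile.

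Levels are given as scaled TPM, TPM divided by 1 factor per library, for libraries 1, 2 and 3 of a group in that order or as mean ± SD (n = 3). Log2 differences compare group means of log2(scaled TPM + 1), on which changes of weakly expressed genes come out too small. A gene counts as higher (risen) or lower (fallen) at a limma adjusted p below 0.05 together with a log2 difference of 1 or more in size. TPM keeps no read totals, so the depth is unknown. In bulk RNA, fewer cells of a type and less RNA per cell cannot be told apart. Untreated hepatocyte libraries had 10231 to 10432 genes at 1 TPM or more and reprogrammed libraries 12553 to 13233. The median gene differed by 0.93 on the log2 scale in TPM as deposited, by 0.11 after scaling and by -0.12 after quantile normalization, and directions are relative to the scaled median.

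Across the 13905 genes, 2871 were higher and 1719 were lower in reprogrammed cells, which is 20.6% and 12.4%. The split moved with the scaling, to 6356 higher and 446 lower in TPM as deposited and to 1852 higher and 1877 lower after quantile normalization. All 3 reprogrammed libraries lay above all 3 untreated hepatocyte libraries for 5329 genes (38.3%) and below them for 4150 (29.8%). At 1 scaled TPM or more, 1487 genes were present in every reprogrammed and in 0 untreated hepatocyte libraries, and 109 showed the converse. In TPM as deposited these counts were 1942 and 61. Of the genes tested, 280 were under 1 TPM in all 6 libraries and entered through other groups, and 2 passed the filter through reprogrammed libraries alone.

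The marker genes of the comparison followed the labels. Spp1 encodes osteopontin, a secreted phosphoprotein made by bile duct cells (chromosome 5, 104435118 to 104441050, GRCm38). Its level was 5.9, 8.25 and 4.18 in untreated hepatocytes and 9649.9, 3626 and 6721 in reprogrammed cells (adjusted p = 4.26e-10, log2 difference 9.80). The groups were far apart, and DDC hepatocytes lay between them at 439, 252 and 561. Cd24a, a surface glycoprotein used to sort progenitor and duct cells (chromosome 10, 43578284 to 43584265), was 0.128, 0.204 and 0 against 459.9, 334 and 416 (log2 difference 8.50, adjusted p = 1.97e-12). Ctgf, a secreted matricellular protein and YAP target (chromosome 10, 24595442 to 24598683), was 0.139, 0.185 and 0.0373 against 288, 232 and 291 (log2 difference 7.91, adjusted p = 7.82e-11). Both were near 0 in every untreated hepatocyte library and above 200 in every reprogrammed one. Cyp2e1, the ethanol-metabolising P450 of pericentral hepatocytes (chromosome 7, 140763739 to 140774987), was 5881, 7057 and 5925 against 636, 1526 and 685 (log2 difference -2.84, adjusted p = 2.81e-05). It fell without overlap and was still an abundant transcript, with reprogrammed library 2 the highest of its group. The mean of Cyp2e1 was 949 in reprogrammed cells, and untreated biliary cells had as much, 942.

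**Figure D1:**
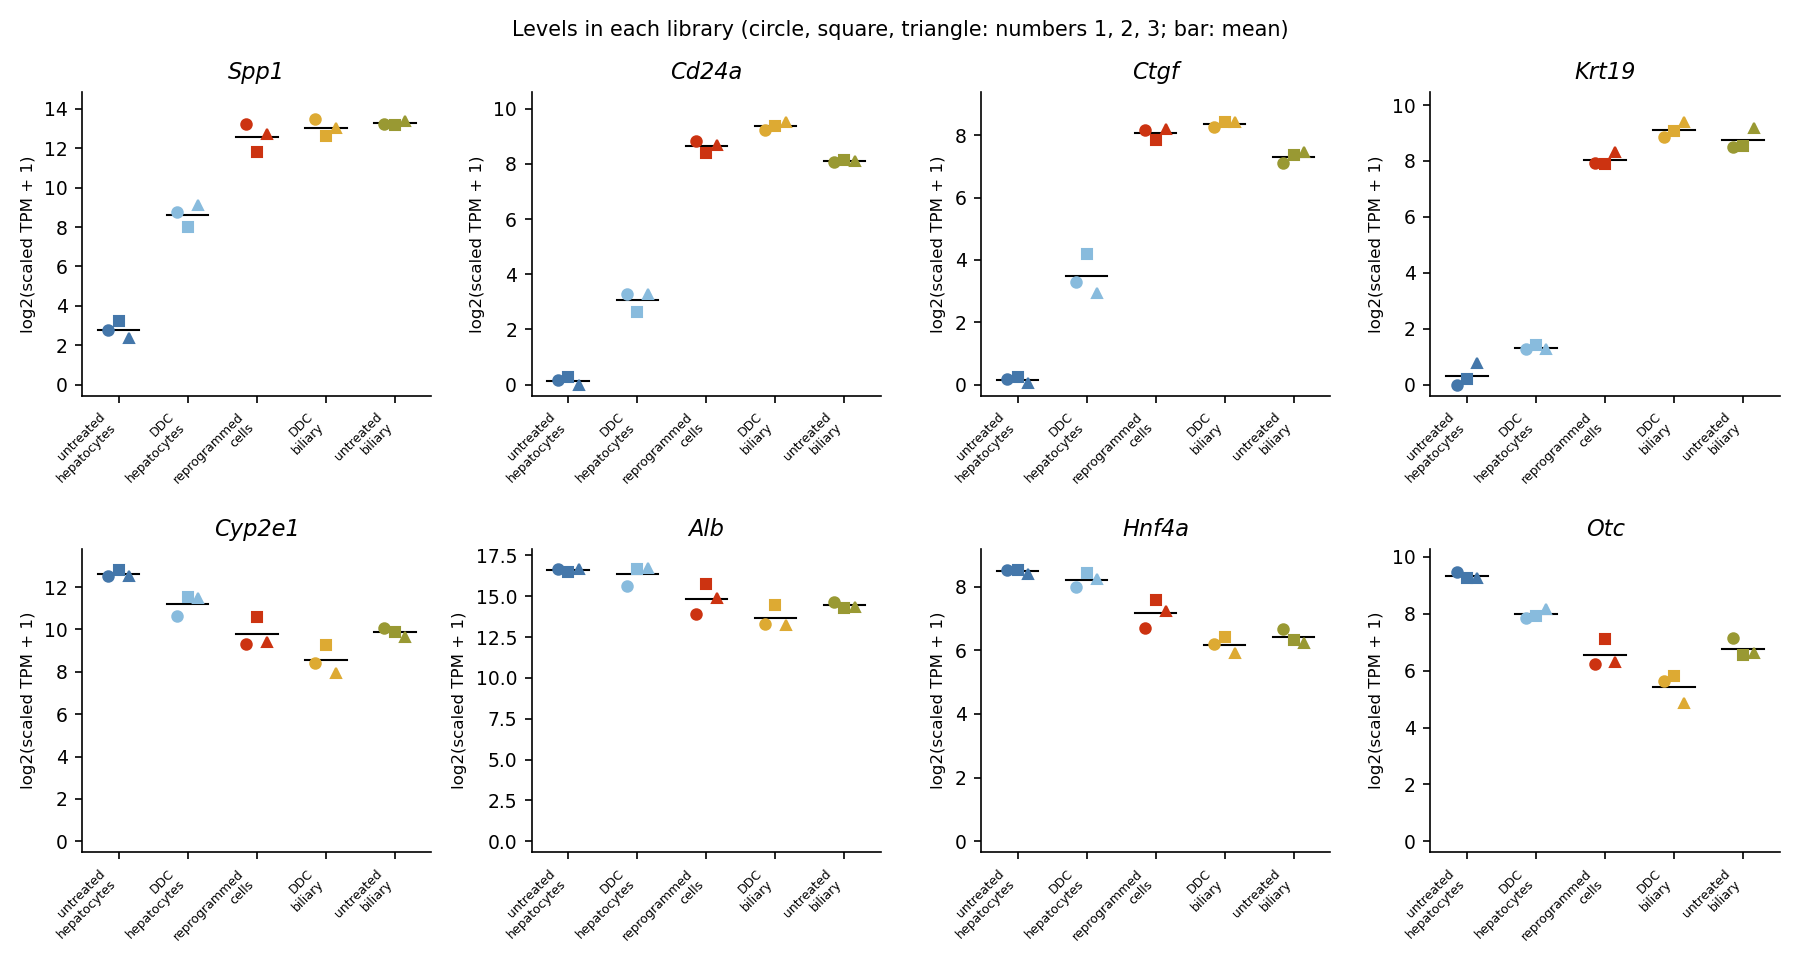
Level of 8 genes in each of the 15 libraries as log2(scaled TPM + 1), with a bar at each group mean. The duct genes Spp1, Cd24a, Ctgf and Krt19 are lowest in untreated hepatocytes and far higher in reprogrammed cells, and Cyp2e1, Hnf4a and Otc are lower in reprogrammed cells.

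Duct-associated and hepatocyte promoters are known to carry sites of different transcription factors, and 5 promoters are printed to show such sites in genes described further on. They were chosen after their matches were seen. Each is the 250 bases before the annotated start from RefSeq (GRCm38.p6), 5′ to 3′ on the strand of the gene, with the match in capitals. Ankrd1 (chr19:36119845-36120094, minus strand) and Cyr61 (chr3:145649986-145650235, minus strand), both YAP/TAZ targets that rose, hold the TEAD letters GGAATG, in Cyr61 as the reverse complement CATTCC. Mmp7 (chr9:7691840-7692089, plus strand), which rose from 0, holds the AP-1 letters TGANTCA. Alb (chr5:90460620-90460869, plus strand) holds the HNF1 letters GTTAAT and Cyp8b1 (chr9:121916306-121916555, minus strand) the HNF4 letters AAGTCCA, and both genes fell.
Ankrd1: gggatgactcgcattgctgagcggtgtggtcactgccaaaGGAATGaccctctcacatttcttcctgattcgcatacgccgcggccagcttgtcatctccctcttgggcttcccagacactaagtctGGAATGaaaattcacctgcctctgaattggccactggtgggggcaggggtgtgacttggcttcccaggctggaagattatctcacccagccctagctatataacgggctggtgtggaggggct
Cyr61: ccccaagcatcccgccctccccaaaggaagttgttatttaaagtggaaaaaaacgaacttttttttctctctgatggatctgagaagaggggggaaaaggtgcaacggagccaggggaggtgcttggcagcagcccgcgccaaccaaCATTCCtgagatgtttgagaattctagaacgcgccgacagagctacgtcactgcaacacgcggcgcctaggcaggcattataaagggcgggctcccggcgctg
Mmp7: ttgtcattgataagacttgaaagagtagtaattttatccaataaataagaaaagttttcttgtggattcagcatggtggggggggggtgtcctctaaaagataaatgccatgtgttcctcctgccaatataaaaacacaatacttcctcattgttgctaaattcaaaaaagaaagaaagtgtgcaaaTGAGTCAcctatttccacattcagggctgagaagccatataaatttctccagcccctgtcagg
Alb: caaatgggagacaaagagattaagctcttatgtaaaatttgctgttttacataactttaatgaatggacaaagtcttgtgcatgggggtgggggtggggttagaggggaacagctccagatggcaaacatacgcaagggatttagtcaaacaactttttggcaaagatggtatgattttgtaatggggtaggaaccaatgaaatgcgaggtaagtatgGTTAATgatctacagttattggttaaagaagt
Cyp8b1: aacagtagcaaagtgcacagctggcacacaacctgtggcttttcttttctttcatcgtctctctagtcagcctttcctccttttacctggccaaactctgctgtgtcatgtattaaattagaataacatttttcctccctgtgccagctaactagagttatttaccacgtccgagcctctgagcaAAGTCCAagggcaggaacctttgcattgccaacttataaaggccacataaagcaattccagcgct
Counted back from the start, the matches begin at -210 and -123 in Ankrd1, -103 in Cyr61, -63 in Mmp7, -32 in Alb and -65 in Cyp8b1.

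Promoters were available for 10619 of the 13905 genes, 13485 start sites in all, and both strands were searched. TEAD letters were in 11% of all these promoters, in 13.9% of those of genes called higher, in 12.2% of those called lower and in 8 of 19 promoters of the YAP/TAZ target list. They were in 4 of 19 of the chemokine and NF-kB list and 2 of 21 of the plasma protein list. Bile acid synthesis had them in 2 of 9, the urea cycle list in 2 of 15 and the P450 list in 2 of 24. AP-1 letters were in 4.81% of all, 6.01% of higher and 5.81% of lower genes' promoters. By list, that was 1 of 19 for YAP/TAZ targets, 4 of 19 for chemokines and NF-kB targets and 2 of 21 for plasma proteins. Bile acid synthesis had AP-1 letters in 2 of 9, the urea cycle list in 3 of 15 and the P450 list in 1 of 24. HNF1 letters were in 4.43% of all, 3.94% of higher and 7.67% of lower genes' promoters, and in 5 of 21 of the plasma protein list. They were in 0 of 15 of the urea cycle list, 0 of 9 of bile acid synthesis and 3 of 24 of the P450 list. YAP/TAZ targets had HNF1 letters in 0 of 19 and the chemokine and NF-kB list in 1 of 19. HNF4 letters were in 3.06%, 2.99% and 5.21%. Plasma proteins had HNF4 letters in 2 of 21, bile acid synthesis in 1 of 9, the urea cycle list in 1 of 15 and the P450 list in 2 of 24. For YAP/TAZ targets and for the chemokine and NF-kB list it was 0 of 19 each. These shares describe letters in a window, and no test was made of them.

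Duct identity genes rose throughout the list. Of 24 biliary epithelial markers, 24 were higher (20.6% of all genes were), with a median log2 difference of 4.92 beside 0.11 over all genes. Krt19, a keratin of simple epithelia that marks bile ducts (chromosome 11, 100140810 to 100148665), was 0, 0.141 and 0.718 in untreated hepatocytes and 243, 235 and 315 in reprogrammed cells (adjusted p = 5.75e-11, log2 difference 7.71). DDC hepatocytes had only 1.4, 1.64 and 1.44, and were not called higher than untreated hepatocytes for it. Krt7, its partner keratin in ducts, was listed at 0 in each untreated hepatocyte library and was 142, 166 and 215 in reprogrammed cells. Epcam, an epithelial adhesion molecule, was 0.162 ± 0.0673 against 265 ± 45.9. Markers that hepatocytes already express rose by less, such as the desmosomal Dsg2 (64.8 to 265).

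Compared with untreated biliary cells, the reprogrammed cells were higher in 5 of the 24 markers and lower in 5 (5.6% and 5.29% of all genes), with a median of -0.25. Compared with DDC hepatocytes, they were higher in 21 and lower in 0 (13.8% and 5.69% of all genes). DDC hepatocytes were in turn higher than untreated ones in 11 and lower in 0 (6.57% and 4.42% of all genes). These comparisons share libraries with the one described here and are given as levels along the series of groups. For Krt19 the mean was 436 in untreated biliary cells, above the reprogrammed 264, and for Spp1 it was 9866, beside 6666.

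Among 20 genes of tight junctions and polarity, 12 rose and 2 fell. The claudin Cldn4 was listed at 0 in each untreated hepatocyte library and was 171, 232 and 337 in reprogrammed cells. Cldn7 (0 to 139 on average) and Cldn6 (0 to 102) also started from 0, whereas Cldn1 (106 to 41.9) and Cldn14 (19.9 to 5.96) fell. The epithelial cadherin gene Cdh1 rose from 37.8 to 240.2. Genes of ductal fluid secretion were higher in 11 of 19 tested and lower in 3. Risen were the chloride channels Cftr (0 to 25.2) and Ano1 (0 to 29.3), the secretin receptor Sctr (0 to 15.8) and the chloride cotransporter Slc12a2 (4.53 to 54.2). Fallen were the hepatocyte aquaporins Aqp8 and Aqp9 (261 to 74 and 424 to 126) and the carbonic anhydrase Car3.

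Cilium genes were higher in 13 of 21 cases and lower in 0. Cholangiocytes carry a primary cilium that senses bile flow, and adult hepatocytes lack one. The largest changes were those of Bicc1 (0.121 to 141), Ift57 (0.288 to 18.7) and Pkhd1, which is mutated in recessive polycystic disease (1.89 to 25.3). Pkd2 rose (7.98 to 36) and Pkd1 was not called (3.39 against 5.7). TPM as deposited had 20 of the 21 higher, and quantile normalization 7.

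Transcription factors of ducts and progenitors rose in 17 of 20 cases and fell in 0, with a median of 2.94. Sox9, which marks the ductal plate in development, was 2.95, 2.85 and 2.47 against 80.3, 52.4 and 68.8 (log2 difference 4.16). Sox4, which acts with it in duct formation, was 0.074, 0.0591 and 0 against 101, 69 and 106. Neither gene's groups overlapped. Ehf (0.0258 to 69.6), Foxj1, known from motile cilia (0 to 56.3), Klf5 (0 to 18.7) and the YAP partner Tead2 (0.0151 to 22.5) were close to 0 in untreated hepatocytes. Onecut1 and Onecut2, which act in both lineages, had log2 differences of 0.91 and 0.95 and were not called, but were without untreated library 2 (1.87 and 1.04) and in TPM as deposited (1.82 and 1.95).

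**Figure D2:**
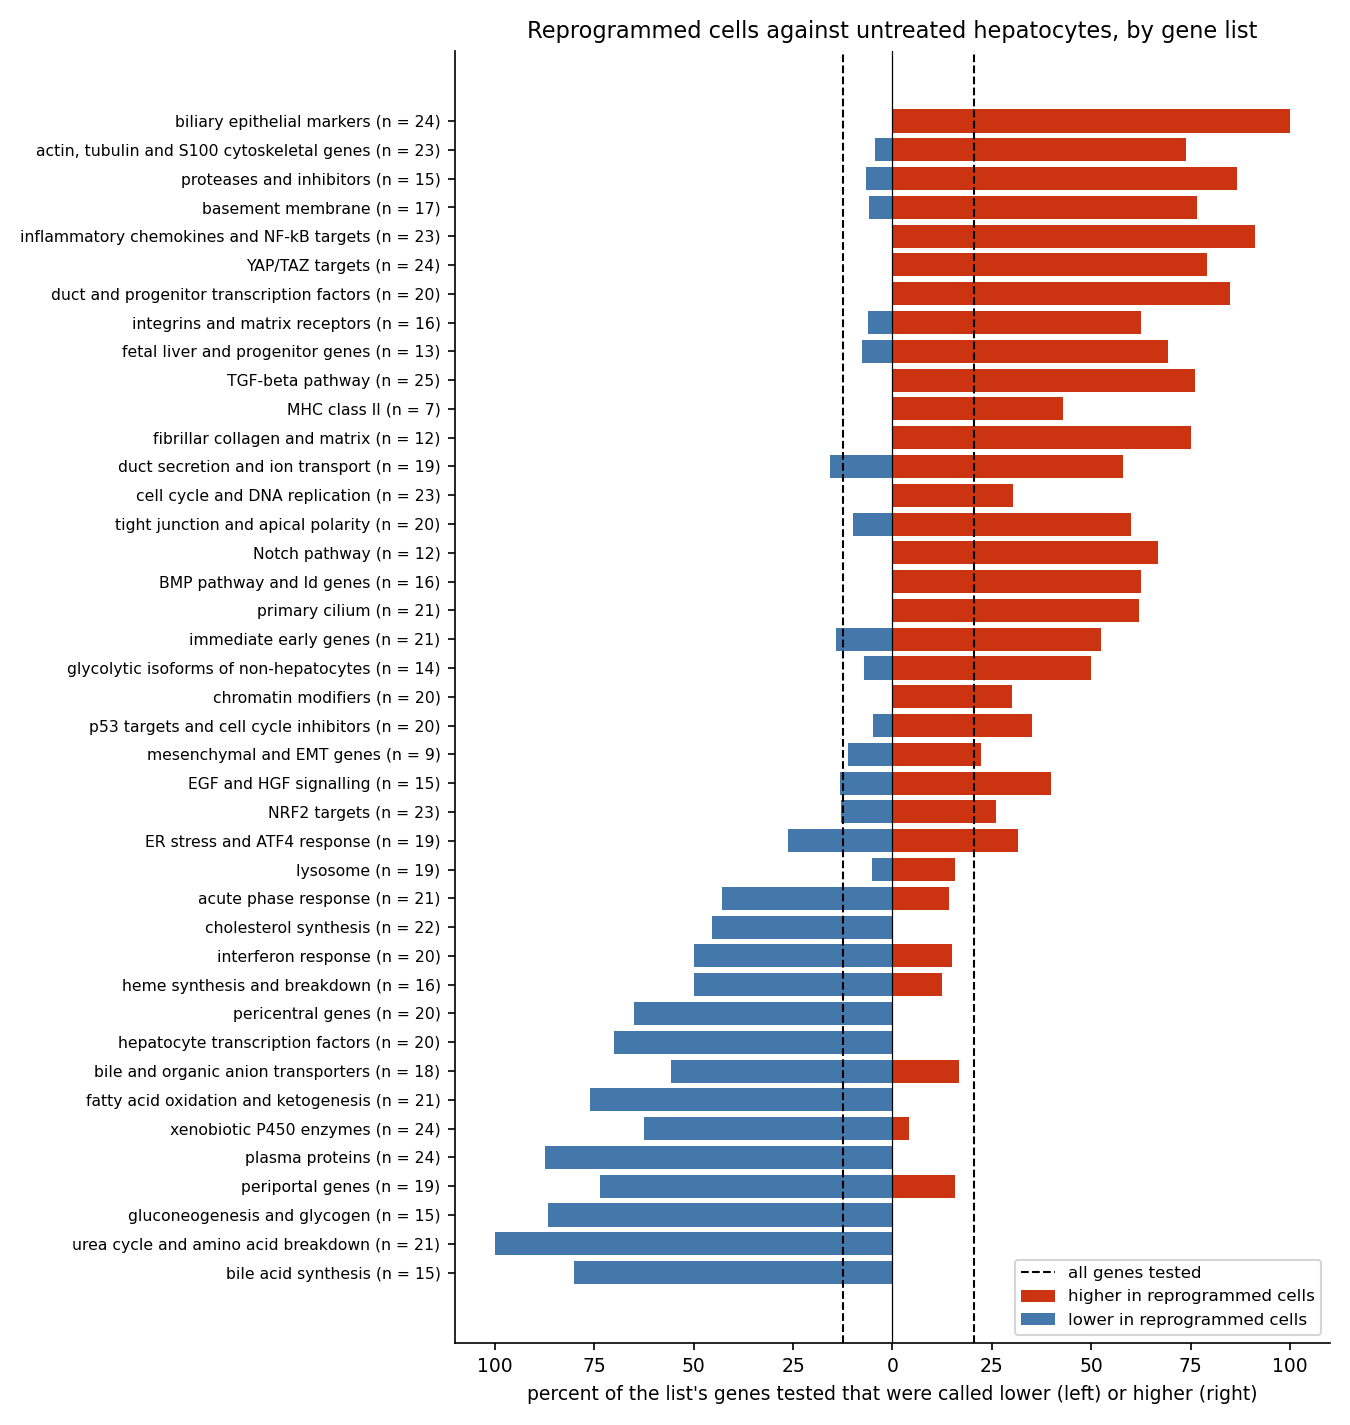
Percent of the genes tested in each list that were called higher (right, red) or lower (left, blue) in reprogrammed cells, with dashed lines at the shares over all genes (20.6% and 12.4%). Biliary markers, with 24 of 24 higher, and urea cycle genes, with 21 of 21 lower, have the longest bars.

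Hepatocyte transcripts fell to a part of their former level. Over 120 genes for plasma proteins, amino acid breakdown, P450 enzymes, bile acid synthesis, fat oxidation and glucose release, the median ratio of reprogrammed to untreated means was 28.4% (quartiles 20.1% and 42.6%). It was 20.5%, 38.1% and 25.4% in libraries 1, 2 and 3, so library 2 retained the most. In TPM as deposited the median was 57.4%. DDC hepatocytes stood at 66.4% of untreated hepatocytes (48.7% and 94.5%). Reprogrammed cells held 40.7% of the DDC hepatocyte level, with close quartiles of 38.0% and 45.2%. Hepatocyte transcripts were also present in untreated biliary cells, at 19.1% of untreated hepatocytes (17.4% and 22.2%). The last 2 medians were 68.3% and 45.7% in TPM as deposited. The part of RNA or cells carried over from hepatocytes in these levels was not tested.

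**Figure D3:**
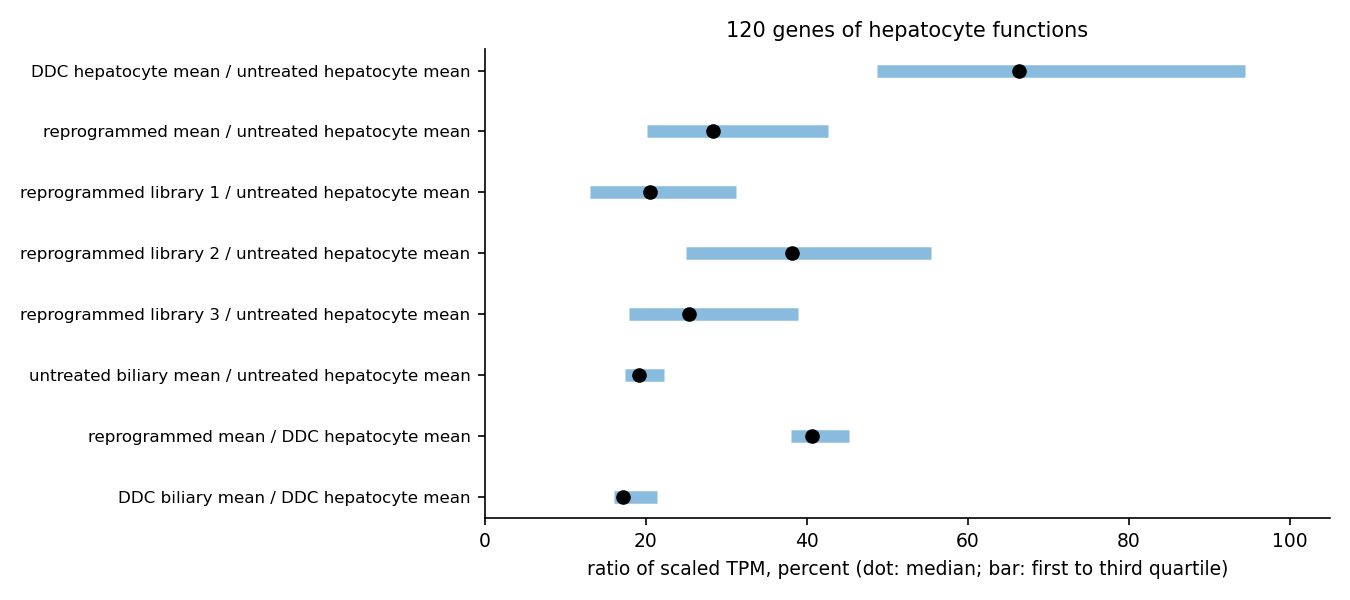
Ratio of mean scaled TPM between groups over 120 genes of hepatocyte functions, in percent, with the median (dot) and the interquartile range (bar). Reprogrammed cells sit at 28.4% of untreated hepatocytes and at 40.7% of DDC hepatocytes, with the narrower bar against DDC hepatocytes.

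Hepatocyte transcription factors were lower in 14 of 20 cases and higher in 0 (12.4% of all genes were lower). Hnf4a, the nuclear receptor that maintains hepatocyte identity (chromosome 2, 163506808 to 163572910), was 370.2, 363 and 334 against 103, 191 and 149 (log2 difference -1.31, adjusted p = 1.37e-04). The groups did not overlap, and DDC hepatocytes were nearer to the untreated level, at 253, 344 and 302. The fall was not called in TPM as deposited (log2 difference -0.25) or after quantile normalization (-0.41). Ppara, which drives fat oxidation, fell from 58.3 ± 10.6 to 14.7 ± 5.59, Nr0b2, the bile acid responsive repressor SHP, from 88.8 ± 14.3 to 15.9 ± 3.61, and Cebpa from 232 ± 38.5 to 107 ± 16.1. Prox1 was 38.4 against 37.3, and Foxa1 and Foxa2, which open chromatin in both lineages, had log2 differences of 0.71 and 0.81. Prox1, Foxa1 and Foxa2 were not called. Cebpa was under the size for a call without reprogrammed library 1 (-0.98), narrowly so without untreated library 3, and in TPM as deposited (-0.05), where Ppara and Hnf4a were not called either. As deposited, 2 of the 20 were lower and 2 higher, and after quantile normalization 7 were lower.

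Plasma protein genes were lower in 21 of 24 cases and higher in 0. Alb, for serum albumin (chromosome 5, 90460897 to 90476602), was 102737, 91152 and 103593 against 15213, 56066 and 30042 (log2 difference -1.75, adjusted p = 0.0217). The groups did not overlap, and the reprogrammed libraries differed widely among themselves, library 2 being the highest. The call was lost in TPM as deposited (-0.69), after quantile normalization (-0.29) and without reprogrammed library 1 or 3 or untreated library 1 or 3 (adjusted p = 0.0908, 0.0611, 0.0541 and 0.056). The complement genes C9 (1548 to 117) and C8a (702 to 78.1) and the mannose-binding lectin Mbl2 (1474 to 201) had the largest falls. Transferrin (Trf, 23483 against 17482) and hemopexin (Hpx, 8243 against 7345), which carry iron and heme, were not called, and after quantile normalization both were higher (1.17 and 1.62). As deposited, 6 of the 24 were lower, and after quantile normalization 6 were lower and 2 higher.

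Urea cycle and amino acid genes were lower in 21 of 21 cases, with a median of -2.21, and in 13 of 21 in TPM as deposited and 12 after quantile normalization. Otc, the mitochondrial enzyme that makes citrulline, was 709, 607 and 604 against 74.6, 136 and 78.5 (log2 difference -2.77, adjusted p = 1.54e-06). Cps1, which supplies its carbamoyl phosphate, was 3278 ± 352 against 869.7 ± 585. Tdo2, which opens the tryptophan ring (3374 to 417), and the tyrosine aminotransferase Tat (3117 to 467) fell the most. In gluconeogenesis and glycogen metabolism 13 of 15 were lower (8 in TPM as deposited), led by G6pc, the last step of glucose release (1230.3 ± 189 to 73.4 ± 18.5).

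Fat oxidation and ketogenesis genes were lower in 16 of 21 cases, and in 4 of 21 in TPM as deposited and 6 after quantile normalization. The carnitine transferase Cpt1a was 161 against 112 and not called. Glycolytic isoforms typical of other cells rose in 7 of 14 tested, such as Pkm (0.965 to 29.2), Hk1 (0.0897 to 9.55) and Ldhb (1.42 to 23.3). Ldha, the main lactate dehydrogenase of hepatocytes, fell from 949 to 477, a difference just past the size for a call. It was not called without untreated library 3, and it was -0.88 without reprogrammed library 1, -0.07 after quantile normalization and 0.05 in TPM as deposited, none of them a call. Cholesterol synthesis genes were lower in 10 of 22 and higher in 0, with medians of -0.89 after scaling and 0.15 in TPM as deposited, and 5 were lower without reprogrammed library 1. Only 1 was lower in TPM as deposited and 4 after quantile normalization.

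Bile acid synthesis genes were lower in 12 of 15 cases and higher in 0. Cyp8b1, the sterol hydroxylase that directs synthesis to cholic acid (chromosome 9, 121914356 to 121916305), was 513, 204 and 443 against 4.21, 20.3 and 3.4 (log2 difference -5.52, adjusted p = 1.14e-05). Cyp7b1, of the alternative route, fell from 314 ± 181 to 7.73 ± 1.3. DDC hepatocytes were already low for both, at 22.9 and 13.2 on average. Cyp7a1, the rate-limiting enzyme of the classic route, was 34.5, 24 and 50.1 against 17.5, 113 and 23.2, with overlap and no call (adjusted p = 0.947).

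Of 18 bile salt and organic anion transporters tested, 10 were lower and 3 higher. Abcb11, the bile salt pump of the canaliculus, was 451, 463 and 446 against 69.8, 116 and 66.8, without overlap. The uptake carriers Slc10a1 (763 ± 60.4 to 140.3 ± 129) and Slco1b2 (943 to 115) fell. The 3 that rose are exporters: Abcc4 (1.11 ± 0.536 to 20.1 ± 3.08) and Slc51b (2.6 ± 0.95 to 28.4 ± 18.8), which act at the blood side, and the multidrug pump Abcb1a (1.44 to 12.3). In DDC hepatocytes they were at 18.9, 71 and 14.4. The more abundant exporters Abcc3 (178 against 155), Abcb4 (190 against 131) and Abcg2 (106 against 58.7) were not called. Slc51a did not pass the filter and was not tested.

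Xenobiotic P450 genes were lower in 15 of 24 cases (9 in TPM as deposited) and higher in 1. Cyp2f2, a periportal enzyme, was 2158, 1632 and 1659.9 against 39.1, 171 and 98.7 (log2 difference -4.35). Cyp2b10, which the receptor CAR induces, was the one that rose, from 24, 39.2 and 49 to 49.4, 478 and 205 (adjusted p = 0.0313), with reprogrammed library 1 barely above the highest untreated library. Without reprogrammed library 2 or 3, or untreated library 1 or 2, it was not called (adjusted p = 0.14, 0.0815, 0.1 and 0.0591). Genes of both lobule zones fell, 13 of 20 pericentral and 14 of 19 periportal ones. Among the pericentral genes Rgn fell from 2368 to 268, and Glul, glutamine synthetase, was 273, 285 and 269.6 against 192, 45.8 and 43.4, with library 1 much the highest reprogrammed one. The 3 periportal genes that rose, Spp1, Sox9 and Cdh1, are on the duct lists as well. As deposited, 3 pericentral genes were lower and 2 higher, and 8 periportal ones were lower there and after quantile normalization.

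Heme genes, the pathway that DDC blocks, were lower in 8 of 16 cases and higher in 2. Fech, the ferrochelatase itself, was 118, 120.3 and 112 against 60.5, 81.7 and 65.2, without overlap, and its log2 difference of -0.76 was under the size for a call. Alas1, the rate-limiting step in liver, was 143, 347 and 179 against 93.8, 196 and 123, with overlap (adjusted p = 0.152). Hmox1, which breaks heme down, rose from 6.94 ± 2.7 to 32.3 ± 11.4, and DDC hepatocytes had 40.5. The list median was -1.01 after scaling and 0.04 in TPM as deposited, where 1 was lower, and after quantile normalization 5 were.

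YAP/TAZ targets, which TEAD factors switch on when the Hippo kinases are inactive, rose in 19 of 24 cases and fell in 0, with a median of 3.06. Ankrd1, whose promoter holds the TEAD letters at -210 and -123, was listed at 0 in each untreated hepatocyte library and was 90.2, 67.9 and 63.5 in reprogrammed cells. DDC hepatocytes had 0.658, 1.16 and 1.68. Cyr61, a matricellular relative of Ctgf, was 28.5, 30.4 and 37.1 against 291, 288 and 335 (log2 difference 3.22, adjusted p = 2.72e-07), and here DDC hepatocytes were well above untreated ones, at 85.8, 214 and 171. Other members rose from near 0, among them Myof (0.0273 to 40.6), Ptpn14 (0.0127 to 13.9), Amotl1 (0.0414 to 11.2) and the endothelin gene Edn1 (0 to 10.6). Wwc1, Lats2, Dlc1, Asap1 and Birc5 were not called.

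TGF-beta pathway genes were higher in 19 of 25 cases and lower in 0, with a median of 2.01. Of the ligands, Tgfb2 was 0.144, 0.082 and 0.0659 against 27.1, 18.4 and 24.1 (log2 difference 4.45), Tgfb3 rose from 0.0106 to 13.1 and Tgfb1 from 0.454 to 8.8. Proteins that store or release the latent ligand rose as well: the binding proteins Ltbp2 (0.154 to 37) and Ltbp3 (0.0203 to 36.1), thrombospondin Thbs1 (0.0239 to 39.7) and the integrin chains Itgb6 (0.052 to 13.9) and Itgb8 (0 to 9.6). Receptor Tgfbr2 rose (10.3 to 36.5) and Tgfbr1 was not called (12.9 against 24.2). The feedback inhibitors Smad7 (3.13 to 16.4) and Pmepa1 (0.149 to 22) were higher.

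BMP pathway and Id genes were higher in 10 of 16 cases and lower in 0, and after quantile normalization in 5 and 1. Id1, a direct BMP target, was 3.07, 2.22 and 2.81 against 92, 93.2 and 103 (log2 difference 4.72), and the ligand Bmp6 rose from 0.447 to 25.1. Hamp, the hepcidin gene that BMP6 induces in hepatocytes, was 3094 ± 1382 against 4573 ± 2804 and was not called. In the Notch pathway, whose ligand Jag1 instructs duct fate in development, 8 of 12 genes tested were higher (5 after quantile normalization) and 0 lower. Jag1 was 1.13, 1.31 and 1.3 against 55.9, 38 and 49 (log2 difference 4.42). The target Hes1 was 3.41, 2.99 and 2.47 against 85.3, 90.1 and 119.8, and the 18.8, 47.9 and 89 of DDC hepatocytes reached into the reprogrammed range. Notch1 was 3.95 against 4.41. Notch2 rose (14 to 30.2) and was under the size for a call without reprogrammed library 1 or untreated library 1 or 3 (0.98, 0.99 and 0.95).

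Receptors of the EGF family moved in opposite directions. Egfr, the main one of hepatocytes, was 312, 522 and 262 against 28.8, 52.1 and 45.3 (log2 difference -3.07), and Erbb2 was 0, 0.0168 and 0 against 12.3, 8.34 and 14.1 (log2 difference 3.62). Erbb3 (65.4 against 57.5) and the HGF receptor Met (33.1 against 28.4) were not called. The ligands Hbegf (0.229 to 24.1) and Btc (2.79 to 19.4) rose. In that list 6 of 15 tested were higher and 2 lower (40.0% and 13.3%, beside 20.6% and 12.4% of all genes).

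Basement membrane genes were higher in 13 of 17 tested and lower in 1, with a median of 3.66. The laminin chain Lama5 (0.0587 ± 0.0183 to 45.6 ± 8.57), the collagen Col4a1 (4.52 to 77.5) and the proteoglycan Agrn (13 to 174) rose. Nid1, which links laminin to collagen, was 0.311, 0.234 and 0.221 against 52.7, 92.3 and 86.7, and DDC hepatocytes had as much, 96.1, 145 and 105. Integrins and matrix receptors rose in 10 of 16 cases and fell in 1, led by the hyaluronan receptor Cd44 (0.207 ± 0.172 to 127 ± 25.8), the collagen receptor Ddr1 (0.20 to 105) and Itga3 (4.64 to 75.6). Fibrillar collagens were called at low levels, Col1a1 reaching 2.81 and Col3a1 6.9. Sparc rose from 0.486 to 163, and fibronectin (Fn1, 649.8 against 471) was not called.

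Proteases and their inhibitors were higher in 13 of 15 tested and lower in 1. Mmp7, matrilysin, an epithelial protease (chromosome 9, 7692090 to 7699585), was listed at 0 in each untreated hepatocyte library and was 377, 427 and 436 in reprogrammed cells (adjusted p = 1.97e-12, log2 difference 8.69). DDC hepatocytes were near 0 at 1.56, 2.98 and 1.93. The plasminogen activators Plau (0.0765 to 22.1) and Plat (0 to 30.6) rose, as did the inhibitors Timp2 (0.119 to 72.8) and Timp3 (0.175 to 32.6). Cytoskeletal genes were higher in 17 of 23 cases and lower in 1. The calcium-binding S100a11 was 2.75, 2.82 and 0.629 against 1209, 1002 and 1416. Anxa2 (1.28 to 426), S100a6 (0.17 to 244) and the thymosin Tmsb10 (8.34 to 923) rose too (log2 differences 7.59, 7.69 and 6.59, beside 8.71 for S100a11), while Actb was 786 against 1035 and not called.

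Inflammatory chemokines and NF-kB targets were higher in 21 of 23 tested and lower in 0, with a median of 3.18. Ccl2, which attracts monocytes, was 0, 0 and 2.45 against 367, 187 and 409.6 (log2 difference 7.66, adjusted p = 5.34e-08), with DDC hepatocytes between at 106, 31.7 and 85.2. Cxcl5, which attracts neutrophils, was 0, 0.127 and 0.058 against 102, 101 and 44.9, and DDC hepatocytes were near 0 at 0.369, 0.385 and 0.279. The adhesion molecule Vcam1 rose from 0.498 ± 0.143 to 172 ± 31.2, Cxcl16 from 1.15 to 119 and Ccl20 from 0 to 25.4. Cxcl10, an interferon target, was 11.6 against 13 and not called.

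Interferon response genes were lower in 10 of 20 cases and higher in 3. Ifit1 was 12.1, 14.1 and 36.7 against 3.25, 2.26 and 3.89 (log2 difference -2.26). Isg15 was 30, 27.1 and 194 against 16.7, 5.1 and 12.9, and untreated library 3 was the highest for both genes. Isg15 was not called without that library or without reprogrammed library 2 (adjusted p = 0.0708 and 0.0658). Irf1, Ifit2 and Oasl2 rose, Irf1 from 21.8 ± 6.22 to 49.3 ± 5.24 (without untreated library 2 its difference of 0.92 was no call). The list median was -0.93 after scaling, -0.98 after quantile normalization and -0.09 in TPM as deposited, where 4 were higher and 2 lower.

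Acute phase genes were higher in 3 of 21 cases and lower in 9, or 14.3% and 42.9%, beside 20.6% and 12.4% of all genes. Lcn2, an iron-scavenging lipocalin, was 18.2, 13 and 66.4 against 1936, 1868 and 1733 (log2 difference 6.13), the level of DDC hepatocytes (1421, 1929.6 and 2215). Il1rn, the interleukin-1 antagonist, rose from 0.744 ± 0.233 to 70 ± 42.7. C-reactive protein (Crp) fell from 857 ± 106 to 196 ± 28 and Saa3 from 108 to 7.36. The list median changed sign with the scaling, from -0.44 to 0.60 in TPM as deposited and 0.27 after quantile normalization, and 7 were higher and 2 lower under either. Of 23 targets of NRF2, the antioxidant regulator, 6 were higher and 3 lower (26.1% and 13.0%), with a median of 0.10. TPM as deposited had 11 higher and 1 lower (median 1.15), and after quantile normalization 9 and 1 (0.78). Gsta1 rose from 52.9 ± 35.4 to 506 ± 152, below the 1415 of DDC hepatocytes, and Gstp1 fell from 12552 ± 1474 to 2239 ± 172. Among 19 lysosome genes 3 were higher and 1 lower (15.8% and 5.26%), with a median of -0.18, and in TPM as deposited 8 and 0 (0.86). Cd63, a tetraspanin of late endosomes, was 1.39, 0.983 and 1.85 against 626, 376 and 522.

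Cell cycle genes were higher in 7 of 23 cases and lower in 0 (30.4% higher, beside 20.6% of all genes). Cyclin D1 (Ccnd1) was 13.9, 15.1 and 29 against 169, 102 and 148 (log2 difference 2.83), and Ccnd2 rose from 0.129 to 23.7. Mki67, a marker of cycling cells, was 0.764, 6.29 and 0.792 against 14.3, 4.46 and 10.1, with overlap and no call (adjusted p = 0.0719), and was called without untreated library 2 (adjusted p = 0.0241). The helicase genes Mcm2, Mcm3, Mcm4 and Mcm6 were higher. In TPM as deposited 19 of the 23 were higher, as were 6356 of all 13905 genes. After quantile normalization 5 were higher and 1 lower. Of the cyclin kinase inhibitors, Cdkn2a was listed at 0 in each untreated hepatocyte library and was 7.06, 4.43 and 4.16 in reprogrammed cells. Cdkn2b rose from 0.559 ± 0.369 to 13.6 ± 4.31, and Cdkn1a was 127 ± 21.5 against 84.2 ± 33.1 and was not called.

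Fetal liver and progenitor genes were higher in 9 of 13 tested and lower in 1. The tetraspanin Tspan8 rose from 0.0864 to 282 and the growth factor midkine (Mdk) from 0.0501 to 37.9. Afp, the fetal relative of albumin, was 0.599, 0.739 and 1.57 against 3.92, 4.53 and 5.97, a call at a low level. The imprinted H19 was 1.33, 1.18 and 4.37 against 55.8, 9.22 and 12.9, with library 1 well above the other reprogrammed libraries, and without it the adjusted p was 0.0513. Of 9 mesenchymal genes tested, 2 were higher and 1 lower (22.2% and 11.1%), near the shares of all genes (20.6% and 12.4%). Vim rose from 0.623 ± 0.518 to 66.9 ± 26.8, S100a4 from 0.107 to 3.65, and Snai2 fell from 9.07 ± 1.39 to 3.03 ± 1.59. Cdh2, the cadherin of hepatocytes and mesenchyme, was 65.3, 66.8 and 67.6 against 49.1, 46.8 and 51.2, and its log2 difference of -0.44 was under the size for a call. The median of that list was 0.49 after scaling and -0.25 after quantile normalization. Among 20 chromatin genes 6 were higher and 0 lower (30.0% higher, beside 20.6% of all genes). They were led by Uhrf1 (0.831 to 12.5), the partner of the maintenance methyltransferase Dnmt1 (5.8 to 15.3). The count was 18 in TPM as deposited, and 3 higher and 1 lower after quantile normalization.

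Markers of other liver cells were measured in the same libraries, as sums of scaled TPM. Stellate and fibroblast markers summed to 2.68 to 8.33 in untreated hepatocytes and 296 to 474 in reprogrammed cells. Of 12 tested, 7 were higher (3 after quantile normalization), with a median of 1.46, and 11 were higher without overlap. Over all genes, 20.6% were higher and 38.3% were higher without overlap. Most of the sum was Rgs5 (0.158 to 343, beside 106 in untreated and 465 in DDC biliary cells). Also higher were Ecm1 (1.46 to 16.5), Dcn (0.774 to 16.2), Col3a1, Col1a2 (0.0255 to 3.04), Col1a1 and Colec11 (0.181 to 1.77). Colec11 was not called without reprogrammed library 3 or untreated library 1 or 3 (adjusted p = 0.142, 0.0848 and 0.0843). The 5 not called were Reln (3.37 in reprogrammed cells), Hgf (0.831), Pdgfrb (0.569), Acta2 (0.494) and Lrat (0.479). Macrophage markers summed to 21.3 to 42.8 and 78.0 to 108, with 3 of 11 higher (6 in TPM as deposited) and 1 lower, or 27.3% and 9.09%. Lyz2 (4.03 to 39.2), Csf1r (1.89 to 13.7) and Cd68 (2.06 to 9.3) rose, the Kupffer cell gene Clec4f fell (5.18 to 1.02) and Adgre1 was 0.543 against 0.712. Neutrophil markers summed to 4.75 to 5.97 and 15.2 to 36.0, with S100a8 (0 to 12) and S100a9 (0.0979 to 7.45) higher and Cxcr2 lower (3.84 to 1.4, under the size for a call without reprogrammed library 1, at -0.83). Endothelial markers summed to 10.5 to 13.0 and 11.4 to 21.6, ranges that overlap, and 0 of 9 were called (1 higher in TPM as deposited). Lymphocyte markers summed to 0.572 to 1.40 and 1.33 to 1.75, and the 1 tested was not called. Erythroid markers summed to 113 to 137 and 10.3 to 16.5, with Alas2 lower (119 to 5.0) and the globin gene Hba-a1 higher (1.46 to 7.22). Mesothelial markers summed to 0.323 to 0.700 and 47.7 to 66.1, mostly Msln (0 to 51). Untreated biliary cells had sums of 56.3 to 65.6 for mesothelial and 86.4 to 122 for macrophage markers. Their sums were 132 to 150 for stellate and fibroblast markers and 2.55 to 3.55 for neutrophil markers, below those of reprogrammed cells. Of 7 MHC class II genes 3 were higher (6 in TPM as deposited), led by Cd74 (13.5 to 203). The part of such cells in the chemokine, matrix and MHC class II results was not tested.

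How much of each change was present in DDC hepatocytes differed between lists, with the same untreated libraries as control in both differences. Biliary markers had medians of 0.98 in DDC hepatocytes and 4.92 in reprogrammed cells, YAP/TAZ targets 0.85 and 3.06, and basement membrane genes 0.52 and 3.66. Plasma proteins were at -0.38 and -1.78 and urea cycle genes at -0.76 and -2.21. The interferon list stood at -0.96 and -0.93. Acute phase genes (0.59 and -0.44) and NRF2 targets (0.99 and 0.10) had the higher median in DDC hepatocytes as scaled, and their values in reprogrammed cells move with the scaling as given above. Of single genes, Cd63 (497), Lcn2 (1855) and Nid1 (115) had means in DDC hepatocytes near or above those in reprogrammed cells, and Krt19, Amotl1 and Cxcl5 were not called there.

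**Figure D4:**
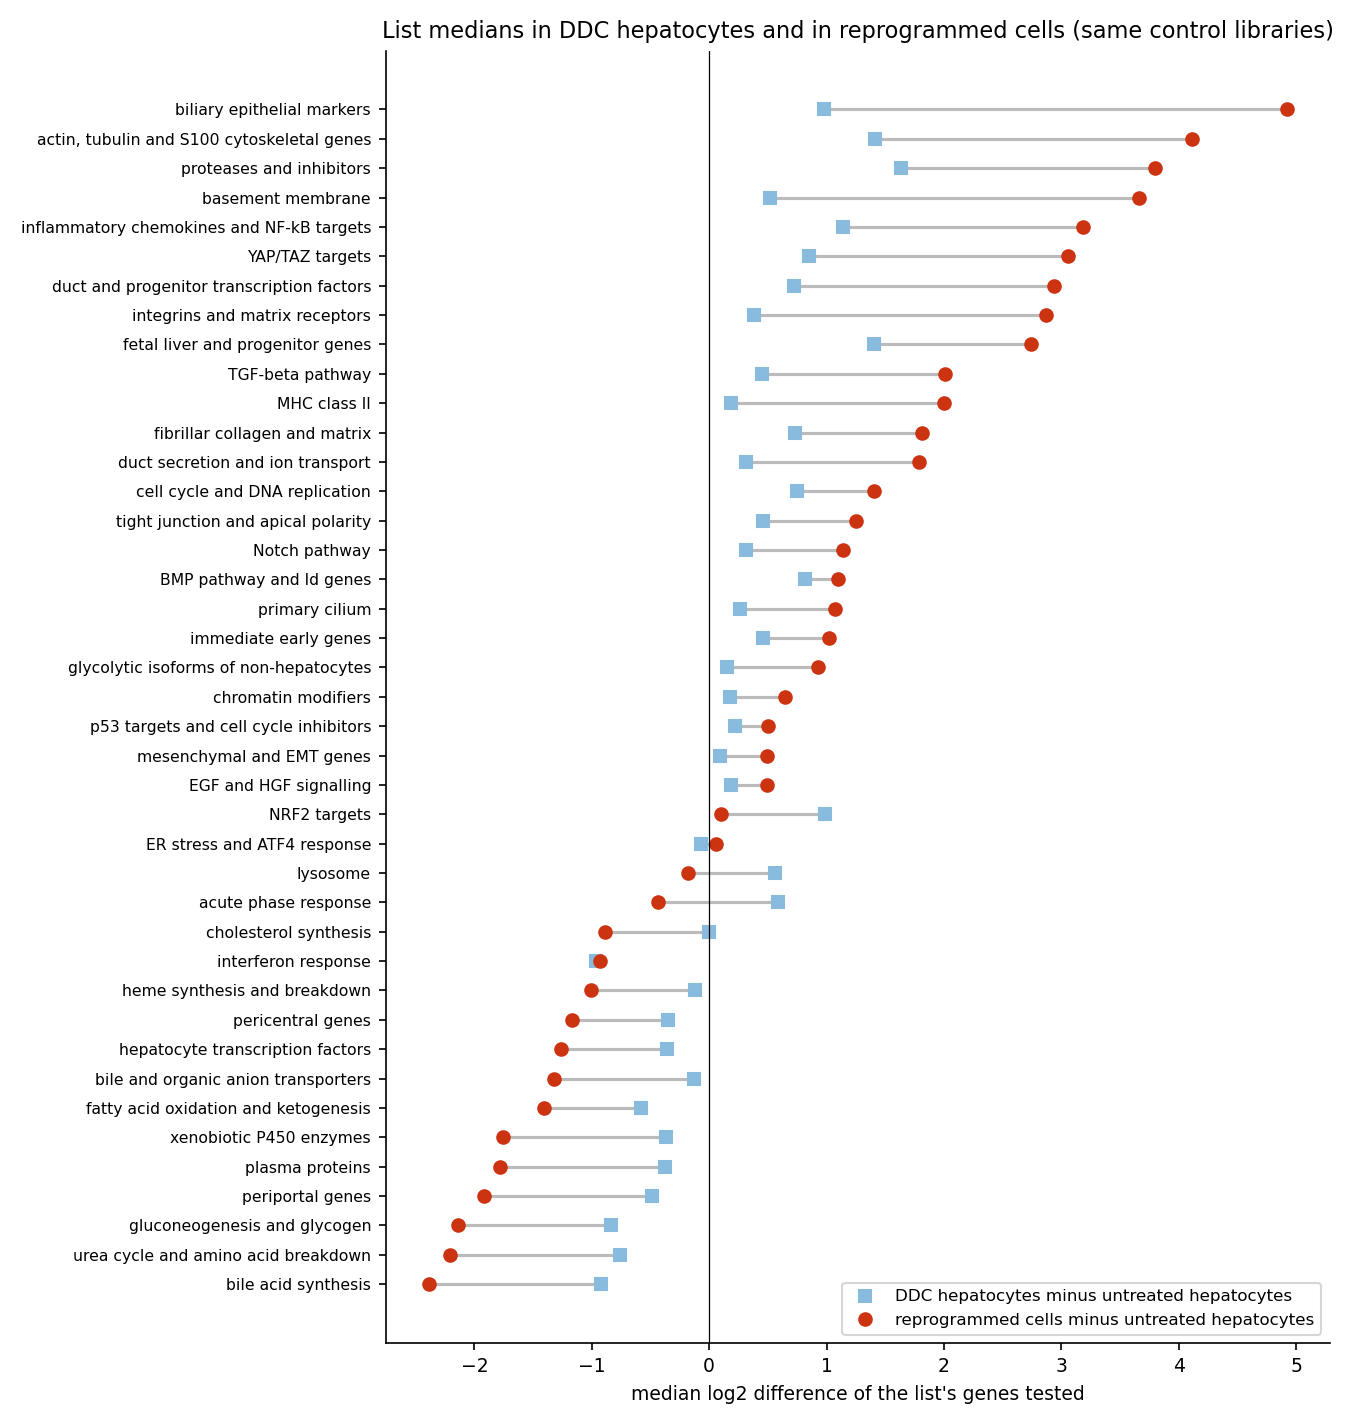
Median log2 difference of the genes tested in each list, in DDC hepatocytes (squares) and in reprogrammed cells (circles), both against the same 3 untreated hepatocyte libraries. Duct, cytoskeletal and matrix lists have points far apart, and those of the interferon list, at -0.96 and -0.93, nearly coincide.

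The largest falls were those of Mup genes, which encode major urinary proteins, pheromone carriers that pulsatile growth hormone drives in male liver. The family consists of near-identical copies on chromosome 4 between which reads can be misassigned, so its members are uncertain one by one and their sum is given. In TPM as deposited, 21 Mup genes made up 14.2%, 11.5% and 8.6% of the untreated hepatocyte libraries and 0.322%, 0.0339% and 0.0899% of the reprogrammed ones. Of the 21, 20 were lower, and 7 were listed at 0 in all 3 reprogrammed libraries. Most of what remained was assigned to Mup20, at 3154, 307 and 877 TPM, and the others summed to 64.4, 31.3 and 21.4. The call of Mup20 was lost without reprogrammed library 2 (adjusted p = 0.0586). DDC hepatocytes were similarly low (0.7%, 0.0306% and 0.0769%), whereas untreated biliary libraries held 6.26%, 4.4% and 3.06%.

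The 9 male-biased genes looked at, Mup20 and Mup21 among them, were chosen after their values were seen. All were lower, to differing degrees, and given that choice the count is no result about male-biased genes at large. The organic anion carrier Slco1a1 was 457, 477 and 384 in untreated hepatocytes and 0.0668, 0.0653 and 0.0113 in reprogrammed cells (adjusted p = 1.32e-12, log2 difference -8.71). The steroid dehydrogenase Hsd3b5 was 407, 355 and 289 against 0.104, 0 and 0, and the fatty acid elongase Elovl3 was 1654, 911 and 715 against 0.909, 0.382 and 0.0255. In DDC hepatocytes Elovl3 was at most 1.37 and the other two were under 1. The fall was smaller for the P450 Cyp2d9, from 2554 to 259.9, 389 and 345, with 974 in DDC hepatocytes, and Cyp4a12a fell from 457 to 16.4, 0.811 and 0.574, library 1 being the highest. Of female-biased genes, Cux2, Cyp2b9, Cyp2b13, Cyp2a4 and Sult2a1 were not called. In reprogrammed libraries the sulfotransferase Sult2a1 was 0.24, 52.4 and 5.5 and the repressor Cux2 0.188, 6.48 and 1.77, library 2 being the highest for both, and both genes were called higher without library 1 (adjusted p = 0.0477 and 0.0421). Car3, a carbonic anhydrase abundant in male liver, was 4909, 2803 and 4074 against 363, 3.36 and 8.38, and DDC hepatocytes were at 1044, 8.26 and 31.9, so library 1 was the highest in both groups. Y-linked Ddx3y was at 24.8 to 45.3 TPM and Xist at most 0.0448 over all 15 libraries.

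Receptors and targets of growth hormone, also chosen after their values were seen, changed too. The receptor gene Ghr fell from 596 ± 55.2 to 76.5 ± 14.6, its target Igf1 from 238 ± 51.1 to 55.5 ± 17.2 and the repressor Bcl6 from 45.4 ± 28.6 to 8.99 ± 2.3. Stat5b, which carries the signal, fell from 41.7 ± 2.16 to 19 ± 1.72, and Stat5a was 11.2 against 9.55 and not called. Socs2, a target that dampens the receptor, was 4.26, 49.2 and 2.29 against 114, 99.5 and 112, with untreated library 2 high (adjusted p = 0.00178).

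**Figure D5:**
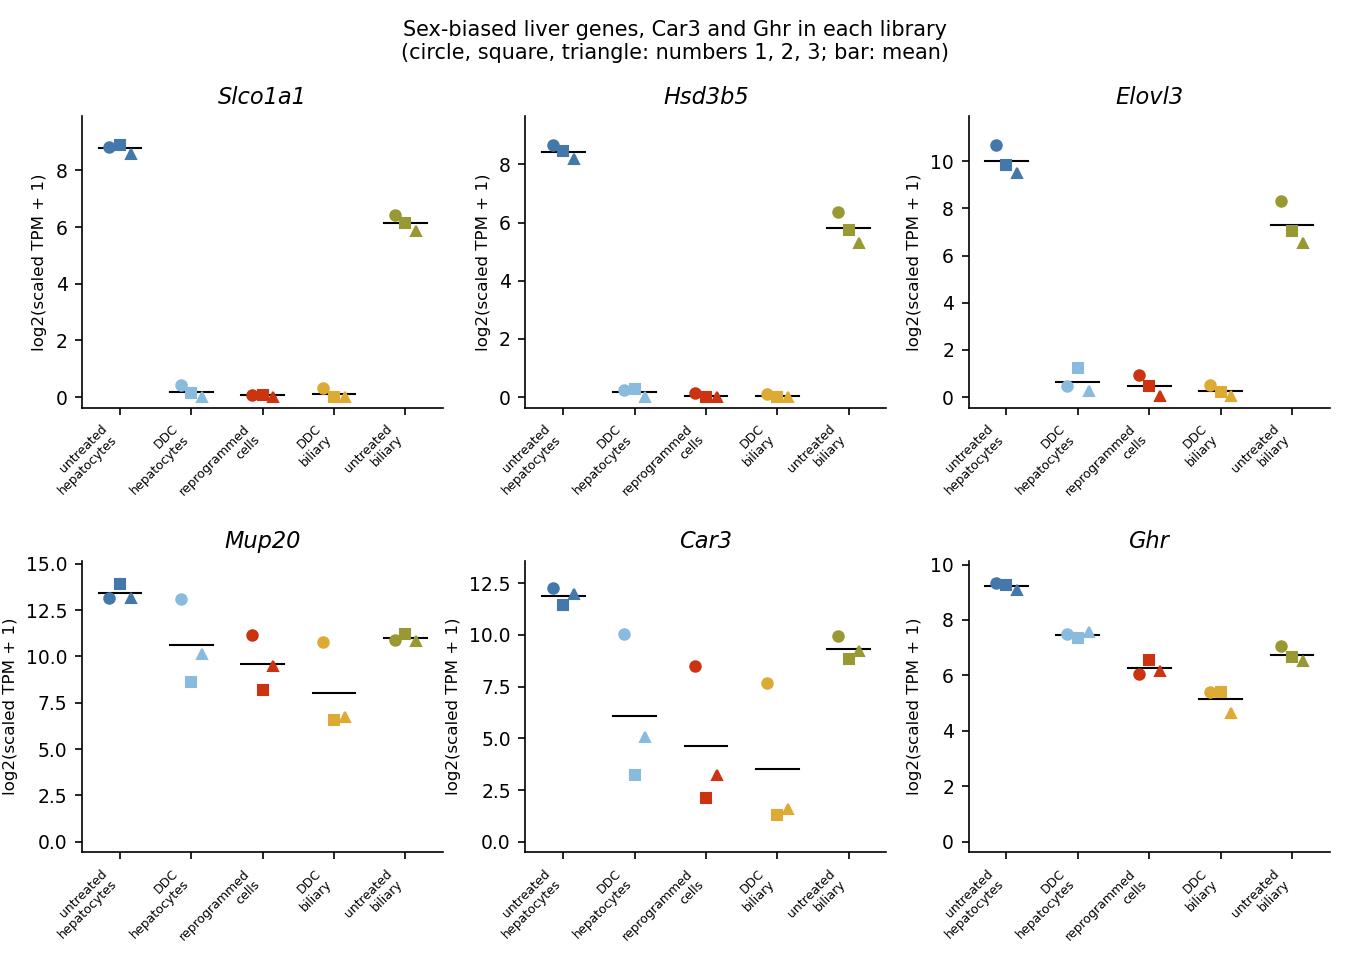
Level of 6 liver genes in each of the 15 libraries as log2(scaled TPM + 1), with a bar at each group mean. Slco1a1, Hsd3b5 and Elovl3 are near 0 in all 9 DDC libraries, and in each DDC group library 1 is the highest for Mup20 and Car3. Ghr, the growth hormone receptor gene, is lower in reprogrammed cells than in untreated hepatocytes.

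A few genes placed reprogrammed cells outside the range of all other groups. The 3 reprogrammed libraries lay above all 12 others for 15 genes (0.108%) and below them for 11 (0.0791%). Of the 15, Msc and Pla2r1 passed the filter through reprogrammed libraries alone and so had to lie high there, which leaves 13. Tbx1, a T-box factor of pharyngeal development, was 20.8, 5.83 and 16.6, with means of 0 in untreated hepatocytes, 0.914 in DDC hepatocytes, 0.787 in DDC biliary cells and 0.311 in untreated biliary cells. Gpc3, a heparan sulfate proteoglycan of fetal liver, was 7.78, 10.1 and 17.6, against at most 5.77 in another library. Scn7a, Madcam1 and Rbpms were the other such genes with a mean of 10 or more, and Rbpms exceeded the next library by little (means of 89.4 and 81.7 in DDC biliary cells). Among those below all others were A130077B15Rik (36.3 to 14.5), which was called lower, and Atad1, Slc30a5, Abca2 and Mkln1, which were not called. These counts became 32 and 0 in TPM as deposited and 8 and 76 after quantile normalization.

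The change of biliary cells under DDC shares no library with the change from untreated hepatocytes to reprogrammed cells, and the difference between these changes was tested. The changes are not independent, since same-numbered libraries deviated together between reprogrammed and DDC biliary cells (r = 0.409, 0.456 and 0.208) and between the untreated groups (0.151, 0.17 and 0.237). Biliary cells had 800 genes higher and 655 lower under DDC (5.75% and 4.71%). Genes higher in both changes numbered 655, which is 22.8% of the 2871 and 81.9% of the 800, and genes lower in both numbered 358, or 20.8% of 1719 and 54.7% of 655. The difference of the changes was called in the higher direction for 2259 genes and in the lower for 901 (16.2% and 6.48%), and for 2354 and 1216 with a block for the number within treatment. Ccl2 rose by 7.66 in reprogrammed cells and 7.64 in biliary cells, Cxcl5 by 6.21 and 6.26, Plau by 4.35 and 5.17 and Cdkn2a by 2.61 and 3.37. The difference was not called for any of these 4. Over the chemokine and NF-kB list, 19 of 23 were higher in biliary cells. For Spp1 the changes were 9.80 and -0.22 and for Krt19 7.71 and 0.38, and both differences were called.

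Genes higher in reprogrammed cells and lower in DDC biliary cells numbered 103, and 3 showed the converse. These are 3.59% of the 2871 genes higher and 0.175% of the 1719 lower. Of all genes, 4.71% were lower and 5.75% higher in biliary cells under DDC, so neither share was above that of all genes. Cyr61 had log2 differences of 3.22 and -1.80, and its means were 305 in reprogrammed, 307 in DDC biliary and 1077 in untreated biliary cells. Anxa13, an annexin (81.4, 128 and 310.0), the glucose cotransporter Slc5a1 (20.2, 35.5 and 125), the laminin chain Lamb2 (25, 25.7 and 74.8) and H2-Ab1 (18.2, 19.9 and 58.2) had the same order of untreated biliary cells above both. These examples were chosen after their values were seen. Immediate early genes, which respond quickly to growth signals and stress, were higher in 11 of 21 and lower in 3 in reprogrammed cells and higher in 2 and lower in 11 in biliary cells, and the difference was called in 17. TPM as deposited had 18 higher and 0 lower in reprogrammed cells. The number lower there was 1 without reprogrammed library 1 or 2 or untreated library 1 or 3. The 3 converse genes were Lars2, Rn45s and Mir6236. None of them was called lower in TPM as deposited or after quantile normalization, and Mir6236 was not called without any 1 of the 6 libraries (adjusted p = 0.0526 to 0.107). Rn45s is a ribosomal RNA precursor, and it was 1320, 1550 and 937 TPM in untreated hepatocytes and 1130, 714 and 697 in reprogrammed cells. In DDC hepatocytes it was 3680, 2560 and 1630 TPM, Lars2 1260, 781 and 500 and Mir6236 153000, 99700 and 66100. All 3 declined there from library 1 to library 3, while in DDC biliary cells their order of libraries differed. A shared source of their reads was not tested.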

How the data were processed

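RNA from sorted mouse liver cells was extracted with the RNeasy micro kit, per the labels' protocols. The authors deposited 1 table of gene TPM, made with Salmon (version not given in the sources used here) on mm10, per the submitters' processing notes. Genes with TPM of at least 1 in at least 3 of 15 libraries were kept. Each library was divided by its median ratio to the geometric mean over 11603 genes. Then log2(scaled TPM + 1) was fitted with limma 3.58.1 (R 4.3.3), with a mean-variance trend, as 5 group means with 10 residual degrees of freedom, and p-values were adjusted over all 13905 genes by Benjamini-Hochberg. In simulated data for the main comparison, run on 13905 genes, 91 and 97 of 100 genes changed by 2 and 3 on the log2 scale were recovered, with 9 false calls. These data were independent noise on the log2 scale with few genes changed. They left out the scaling step and shared deviations of libraries, so errors from those were not measured.

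Genes named were the 4 markers, a fixed set, the 10 largest changes per direction without overlap, up to 4 called genes per direction and 3 uncalled ones of every list, 10 and 5 genes above and below all other groups, and the 5 largest differences of the changes per direction. Not all of these are printed, and genes outside this rule, the growth hormone and sex-biased ones among them, were chosen after their values were seen. The members and the 48 lists were chosen with earlier results of these data known. Coordinates are from GENCODE M21, matched by symbol.

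Library numbers did not pair reprogrammed cells with untreated hepatocytes: the deviations of same-numbered libraries from their group means had r of -0.0411, -0.116 and 0.00293. They did pair reprogrammed with DDC hepatocyte (0.449, 0.402 and 0.136) and DDC biliary libraries (0.409, 0.456 and 0.208), and untreated hepatocyte with untreated biliary ones (0.151, 0.17 and 0.237). Alternatives covered scaling, pseudocount, filter, samples fitted, weights, moderation, the call, the number as a block and omission of single libraries.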

Additional observations from a re-analysis of the deposited data

Results flagged for a closer look

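The change from untreated hepatocytes to reprogrammed cells differed from the change of biliary cells under DDC in 2259 genes in the higher and 901 in the lower direction, by limma's test of the difference itself. For 106 genes the changes were called in opposite directions and their difference was called as well. Genes lower in biliary cells made up 3.59% of the 2871 higher in reprogrammed cells, beside 4.71% of all genes. Genes higher in biliary cells made up 0.175% of the 1719 lower ones, beside 5.75% of all genes.

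The largest such differences in the higher direction, by the naming rule, were those of Spp1 (10.03 on the log2 scale), Mir25 (7.59), Scara3 (7.57), Anxa13 (7.45) and Krt19 (7.34). Scara3, a scavenger receptor family member, was 0.0951, 0.0506 and 0 in untreated hepatocytes and 225, 142 and 179 in reprogrammed cells, and its mean was 336 in DDC biliary and 371 in untreated biliary cells. Mir25, a microRNA gene within a protein-coding host, was listed at 0 in every untreated hepatocyte library and was 42.6, 23.1 and 40.1 in reprogrammed cells.

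In the lower direction they were Rmrp (-4.85), Snora34 (-3.92), Mup12 (-3.26), Lars2 (-3.21) and Rn45s (-3.18). Rmrp and Snora34 are short noncoding RNAs. Lars2 and Rn45s are among the converse genes described above, for which a shared source of reads was not tested. Rmrp was 9.1, 14.5 and 9.72 in untreated hepatocytes against 0, 1.45 and 0 in reprogrammed cells, and the fall itself was not called without reprogrammed library 3 (adjusted p = 0.0507). Snora34 was 60.3, 96.3 and 64.5 against 7.09, 28.8 and 0, and the call of its difference of the changes was lost in 6 of 12 omissions of 1 library (adjusted p from 0.00338 to 0.0804 over all of them), namely those of untreated hepatocyte library 1, 2 or 3, DDC biliary library 1 or 2 and untreated biliary library 1. Mup12 was called lower in both changes (-11.39 and -8.13) and belongs to the Mup family of near-identical copies.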

How the results depend on the processing

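Of 188 called genes named here, 147 had the same call under all alternatives run. The 2871 genes higher became 6356 in TPM as deposited, 1852 after quantile normalization, 1432 with a pseudocount of 5 and 4950 on adjusted p alone. The 1719 lower became 446 in TPM as deposited and 3844 on adjusted p alone. For the difference of the changes, the 2259 higher became 5166 in TPM as deposited, 1362 after quantile normalization and 1137 with a pseudocount of 5, and the 901 lower became 64 in TPM as deposited and 2222 on adjusted p alone. Genes above all 12 other libraries numbered 32 in TPM as deposited and 8 after quantile normalization, and those below them 0 and 76. Omission of 1 library at a time gave 2720 to 3067 higher and 1604 to 1822 lower, and 2099 to 2458 and 653 to 1223 for the difference of the changes. With the number as a replicate block over all samples the counts were 2888 and 1741, and 2297 and 1014. With a replicate block within treatment, chosen after seeing the data and possible only for pairs within a treatment, they were 2354 and 1216 for the difference of the changes, and 1947 and 896, beside 1916 and 791, against DDC hepatocytes. Direction changed for Ldha in TPM as deposited (0.05) and, after quantile normalization, for Mir6236 (0.59). Trf (1.17) and Hpx (1.62), not called as scaled, were higher after quantile normalization. Calls also lost in TPM as deposited were those of Aqp8, Aqp9, Cldn1, Cldn14, Clec4f, Cxcr2, Glul, Snai2, Stat5b and A130077B15Rik. Calls also lost after quantile normalization were those of Afp, Aqp8, Aqp9, Cd68, Cldn1, Col1a1, Col1a2, Colec11, Cps1, Dcn, Dnmt1, Glul, Gstp1, Hba-a1, Ifit2, Mcm2, Mcm4, Pla2r1 and Stat5b. The causes were not tested. Without read totals no limit of detection can be given.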
